A study of Rattus norvegicus with 4 samples.

Results

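The rat miR-466 family was measured in extracellular vesicles, small membrane packets shed by cells, from cultures of macrophages derived from bone marrow. Its members were taken as every miRNA on the array whose name starts with rno-miR-466, which gave 6 of the 758 rat miRNAs and 14 of the 1806 miRNA probes. The family was picked for description because of its signals in the same comparison, so its group differences are given as descriptions, with no p-values. Single-colour (Cy3) arrays were used, 2 per group. Each probe is printed as 4 or 8 spots, so that each member has 16 spots on an array.

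Both groups came from male wild-type Sprague-Dawley rats operated on the right knee at 8 weeks of age, with marrow taken 8 weeks later. M0_sham (n = 2 arrays) holds vesicles from sham-operated rats, whose marrow cells were sorted for CD45 and CD11b and kept to day 7 in medium with the macrophage growth factor M-CSF at 20 ng/mL (M0, resting macrophages). M1_OA (n = 2 arrays) holds vesicles from rats with osteoarthritis (OA) induced by destabilisation of the medial meniscus and anterior cruciate ligament transection. Their macrophages were grown the same way and then had 100 ng/mL lipopolysaccharide (LPS) with 20 ng/mL interferon-γ for 48 hours and 5 mM ATP for 60 minutes (M1, inflammatory). Disease, polarisation and ATP differ together and cannot be told apart. The cells stand in for synovial macrophages but are grown from marrow. The labels do not say whether the replicates are separate animals or cultures, so the spread between them may be technical, and 2 against 2 arrays cannot give an exact two-sided permutation p below 0.333.

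A miRNA is a short RNA cut from a hairpin; the strand from the 5′ side is the 5p arm and the other the 3p arm, and the seed, bases 2 to 8, does most of the pairing with target mRNAs. In the mouse, miR-466 belongs with miR-467, miR-669 and miR-297 to a large repeat-derived cluster in an intron of Sfmbt2, a Polycomb-related gene that is imprinted and active in the placenta. Mouse miR-466l has been reported to raise interleukin-10 in macrophages stimulated through Toll-like receptors.

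In the rat annotation (RefSeq, GRCr8) the family comes from 4 genes, Mir466d, Mir466c, Mir466b-2 and Mir466b-1. They lie on the minus strand of chromosome 17 within the span of Sfmbt2 (chr17:72844037-73038599, minus strand). These 4 are the only miRNA genes annotated in that span. They cover 32575 bases, with gaps of 14504, 14783 and 2948 bases between neighbours. The array names miR-466d without an arm, and its place in the hairpin puts it on the 5p side. miR-466b-5p has the same mature sequence from Mir466b-1 and Mir466b-2, so its probes cannot tell the 2 genes apart.

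The mature sequences are shown because the seeds and the shared repeat set how the members relate. They run 5′ to 3′ with the seed in capitals.
rno-miR-466b-5p (chr17:72942513-72942534 and chr17:72945547-72945568): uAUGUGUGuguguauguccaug
rno-miR-466c-5p (chr17:72927649-72927669): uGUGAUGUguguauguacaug
rno-miR-466d (chr17:72913060-72913081): aUGUGUGUguauguucuuuugu
rno-miR-466b-3p (chr17:72945512-72945533): aUACAUACacacacacauacac
rno-miR-466b-2-3p (chr17:72942475-72942495): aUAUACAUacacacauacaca
rno-miR-466c-3p (chr17:72927610-72927630): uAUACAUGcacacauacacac
The 5p arms carry alternating U and G, and the 3p arms alternating A and C. The 6 seeds all differ, and no other array miRNA with a RefSeq sequence (685 of 758 matched) has any of them. The longest run of letters shared between miR-466b-5p and miR-466d was 13, and miR-466c-5p shared 11 with each.

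On the array, 71.4% of the 192 5p-arm spots (48 per array, 4 arrays) were flagged well above background by the scanner software, against 6.25% of the 192 3p-arm spots. Over all miRNA spots of the arrays the share was 3.78%. Spots of 1 array share their RNA and are not replicates. The arms are read by different probes, which differ in affinity, so the shares do not compare the amounts of the 2 arms. Of the 137 flagged 5p spots, 64 belonged to miR-466b-5p. With the 95th percentile of each array's negative control spots as the limit, the shares were 69.3% and 5.21%. The pooled 5p share hides shifts on single arrays. By the flag it was 43.8% and 75% on the M0_sham arrays and 68.8% and 97.9% on the M1_OA arrays (replicate 1, then 2), and by the negative controls 43.8% and 97.9%, then 37.5% and 97.9%. rno-miR-466b-5p held all 16 spots above background on every array. A miRNA counts as above background on an array when over 0.5 of the spots carry the flag for 1 or more of its probes. By that rule miR-466b-5p and miR-466d were above background on all 4 arrays, among only 11 such miRNAs. miR-466c-5p was above background on 3 arrays and miR-466b-3p on 1, while miR-466b-2-3p and miR-466c-3p were above it on none.

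**Figure D1:**
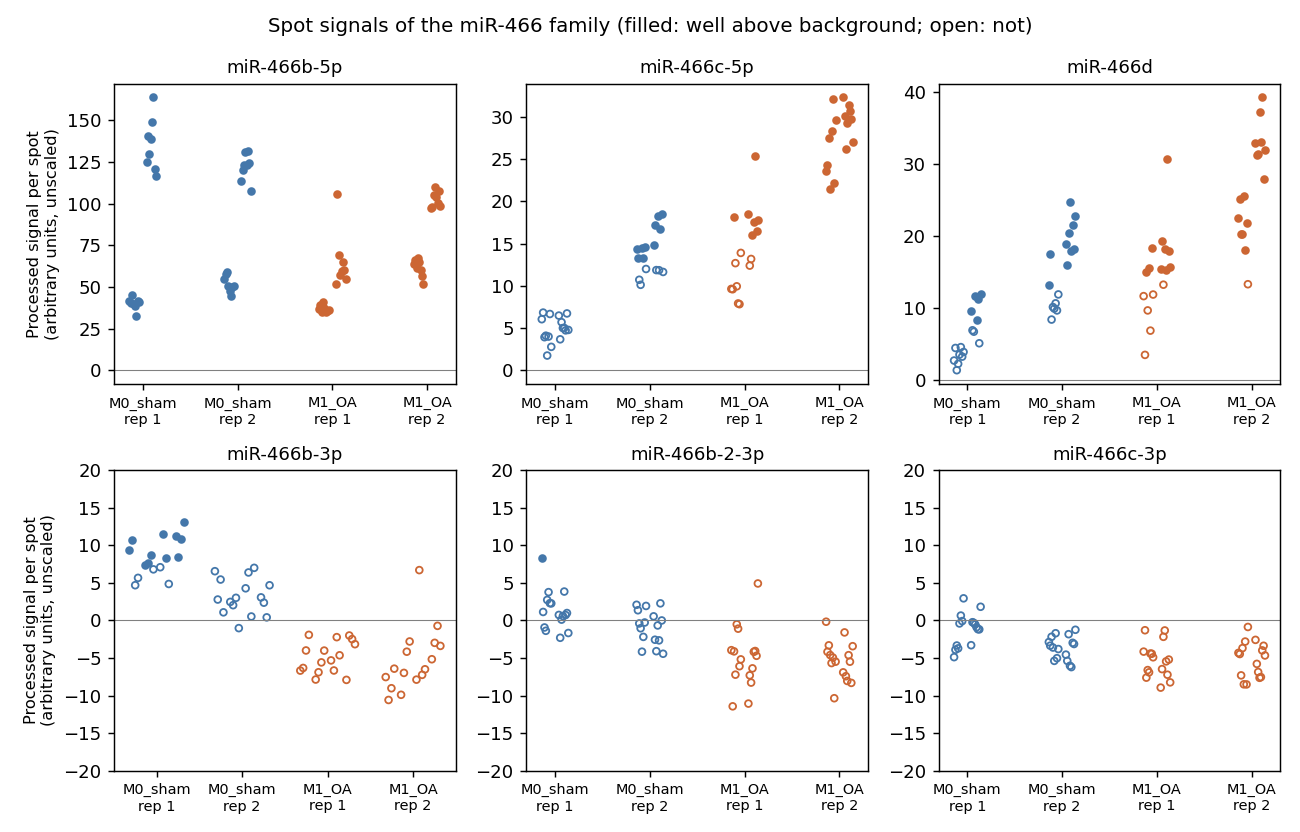
Processed signal (arbitrary units, no scaling between arrays) of every spot of the 6 members on each of the 4 arrays, 1 panel per member; filled points were flagged well above background and open points were not. The y ranges differ between the 5p panels and are shared by the 3p panels. All miR-466b-5p spots are filled, and filled 3p-arm spots occur on M0_sham replicate 1 only (12 of its 48).

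rno-miR-466b-5p gave summed signals of 172 and 176 on the M0_sham arrays and 96.9 and 162 on the M1_OA arrays, in the scanner's arbitrary units with no scaling between arrays. Values of a group are given for replicate 1 and then for replicate 2, here and throughout. Both M0_sham arrays lay above both M1_OA arrays, and the second M1_OA array lay close below them. The means were 174 ± 3.11 (SD, n = 2) in M0_sham and 129 ± 46.1 (SD, n = 2) in M1_OA, and the gap between them was smaller than the M1_OA SD. Of the 41 miRNAs above background on both arrays of a group, which are called the tested miRNAs here, 4.88% had M1_OA arrays wholly below the M0_sham arrays without scaling and 80.5% wholly above. The 2 on the lower side were miR-466b-5p and miR-296-5p, the latter named after its values were seen. The M0_sham arrays had 23 and 13 miRNAs above background and the M1_OA arrays 42 and 45. Most of the 41 therefore passed through the M1_OA arrays alone, and the shares on the higher side, here and below, are partly set by that filter.

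The size of this difference depended on the scaling. Arrays were brought to a common 75th percentile, taken over the 11 miRNAs above background on every array, which multiplied the M0_sham signals by 2.04 and 1.52 and the M1_OA signals by 0.468 and 0.687. With so few miRNAs, the percentile lies midway between different miRNAs on different arrays. On the M1_OA arrays these were miR-3473 and miR-6216, whose unscaled log2 differences were 1.75 and 2.92. On the M0_sham arrays they were miR-3584-5p with miR-3473 (replicate 1) or with miR-466b-5p itself (replicate 2). After this scaling, miR-466b-5p stood at 351 and 269 on the M0_sham arrays and 45.3 and 111 on the M1_OA arrays. The groups again did not overlap, which held for 19.5% of the tested miRNAs on the lower side and 58.5% on the higher. The scaled log2 difference, M1_OA minus M0_sham, was -2.11 ± 0.54 (limma SE, n = 2 per group), or 4.32-fold lower in M1_OA. miR-466b-5p was 1 of the miRNAs called lower at a Benjamini-Hochberg adjusted p of 0.05. Of all 41 tested, limma called 9.76% lower and 53.7% higher, and since the family was picked from this contrast nothing is read from its call.

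Without scaling the log2 difference of miR-466b-5p was -0.47 ± 0.32, and limma called none of the 3 tested members, at an adjusted p or at an unadjusted p of 0.05. On the unscaled signals 78% of the tested miRNAs were called higher in M1_OA and 0 of 41 lower, also 0 at an unadjusted p of 0.05, and no other tool was run. Scaled to the labelling spike-ins, the array's probes for control RNAs of the labelling step, the difference was 0.059. These settings move all miRNAs together: the tested miRNAs had a median log2 difference of 0.62 scaled, 1.96 unscaled and 2.49 by spike-ins. Relative to that median, miR-466b-5p lay at -2.73, -2.43 and -2.43. These 3 settings differ by a factor per array and the floor, so their closeness is built in. The median itself is partly set by the filter, which let in miRNAs through the M1_OA arrays alone. Over the 11 miRNAs above background on all arrays the median was lower, at 0.69 unscaled and -0.95 scaled. Normexp background correction, run with a constant of 50 added to each spot, gave a median of -0.79. There miR-466b-5p, at -1.41, lay at -0.62 relative to the median. miR-466b-5p was the lowest of the tested miRNAs under 10 of the 17 settings run, the main one included. Among these, no scaling, spike-in scaling, a floor of 1 scaled unit and a replicate block keep the main order by construction, apart from floored values. The 10 are therefore not separate checks. In the authors' deposited table of log2 values miR-466b-5p ranked 7 from the lowest. By the scanner's total gene signal column it ranked 3, at -2.05, behind miR-466d (-2.54) and miR-466c-5p (-2.47). It ranked 2 without M0_sham replicate 1 or M1_OA replicate 1, and 3 without M0_sham replicate 2, with a looser filter or with none. The scaled call was lost when any 1 array was left out: the difference was -1.71 without M0_sham replicate 1, -2.05 without M0_sham replicate 2, -1.46 without M1_OA replicate 1 and -2.76 without M1_OA replicate 2.

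**Figure D2:**
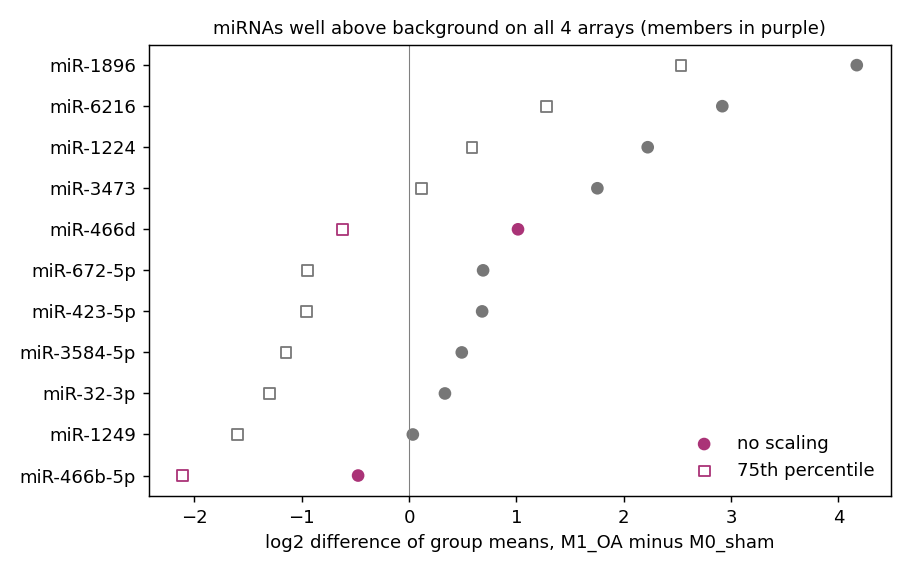
log2 difference of group means (M1_OA minus M0_sham, x axis) for the 11 miRNAs above background on all 4 arrays, unscaled (filled circles) and scaled to the 75th percentile (open squares), with the miR-466 members in purple. miR-466b-5p is lowest on both scales at -0.47 and -2.11, and miR-466d is number 7 from the lowest at 1.02 and -0.62; scaling shifts every miRNA by the same amount.

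rno-miR-466d lay near the detection limit. Its unscaled signals were 12.0 and 30.4 on the M0_sham arrays and 27.9 and 53.3 on the M1_OA arrays, with 5, 10, 10 and 15 of 16 spots above background. M0_sham replicate 1 was low and M1_OA replicate 2 high, and the groups overlapped. The log2 difference was 1.02 ± 0.57 unscaled and -0.62 ± 0.69 scaled (limma SE, n = 2 per group), so its direction flips with the scaling, and neither was called.

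rno-miR-466c-5p followed the same order. Its unscaled signals were 9.53 and 27.9 on the M0_sham arrays and 25.5 and 55.8 on the M1_OA arrays. M0_sham replicate 1 had 0 of 16 spots above background, and the other arrays had 10, 7 and 16. It was tested because both M1_OA arrays detected it. The log2 difference was 1.21 ± 0.66 unscaled and -0.43 ± 0.79 scaled, so the direction flips here too, and neither was called. On M1_OA replicate 1 the negative control spots were brightest (95th percentile 23.5, against 8.19, 9.38 and 15.4 on the M0_sham arrays and M1_OA replicate 2). Above that limit lay 1 of 16 spots of miR-466c-5p and 1 of 16 of miR-466d on M1_OA replicate 1.

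rno-miR-466b-3p had the most flagged spots of the 3p arms and was the only one of them above background on any array. Its unscaled signals were 34.1 and 12.8 on the M0_sham arrays and -18.1 and -24.6 on the M1_OA arrays, values below 0 arising from background subtraction. M0_sham replicate 1 had 11 of 16 spots above background, and the other 3 arrays had 0 of 16. As M1_OA was not well above background, the array's lowest signal among detected miRNAs was put in place of the dim value. M0_sham was then 1.33-fold higher unscaled and 4.15-fold higher after scaling, on means of log2 signals over both M0_sham arrays, of which 1 detected it. These folds are not strict lower bounds. The 12.8 of M0_sham replicate 2 entered as read, though it lies below that array's lowest detected signal, 26.7. The folds rest on M0_sham replicate 1: the 12.8 of replicate 2 also lies below the lowest detected signals of the M1_OA arrays, 16.9 and 14.6, so that array alone gives no unscaled fold. Without M0_sham replicate 1, the scaled log2 difference, with undetected M1_OA values at the floor, went from -2.22 to -1.03. The signal is a sum over probes, and with the brightest probe in its place that difference was -1.07. The member was not among the tested miRNAs, since no group had it on both arrays.

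The other two 3p arms stayed at background. miR-466b-2-3p read 1.77, -1.12, -11.5 and -10.6 on the M0_sham arrays and then the M1_OA arrays, with 1 of its 64 spots flagged. miR-466c-3p read -2.68, -7.41, -11.2 and -10.0 in that order, with no spot flagged. Neither was well above background in either group, so no fold is given. These values are sums over probes. The mean spot signals of the single probes ran from -6.57 to -4.84 on the M1_OA arrays. Per spot, the median over all miRNA probe spots was -1.81, -3.45, -2.09 and -2.84 on the same arrays, in the order above.

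miR-466b-5p has 2 probes that differ by 1 base at the 3′ end. They are shown, 5′ to 3′ with the repeat complementary to UG in capitals, because their signals did not change alike.
18-base probe, pairing with mature bases 5 to 22: catggacatACACACACA
19-base probe, pairing with mature bases 4 to 22: catggacatACACACACAC
The 18-base probe gave mean spot signals of 40.4 and 51.8 on the M0_sham arrays and 37.3 and 61.5 on the M1_OA arrays, unscaled. The 19-base probe gave 132 and 125 on the M0_sham arrays and 59.6 and 101 on the M1_OA arrays. The groups overlapped in the shorter probe, whose unscaled log2 difference was 0.066, and did not overlap in the longer one, at -0.73. The ratio of the longer to the shorter probe within an array, which no scaling can change, was 3.26 and 2.40 in M0_sham and 1.60 and 1.64 in M1_OA. These 2 ranges do not overlap, and the difference was not tested.

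**Figure D3:**
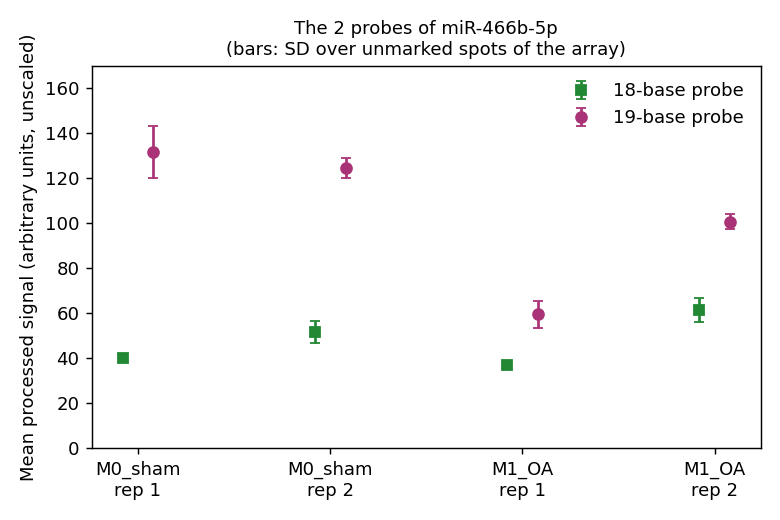
Mean processed signal (arbitrary units, unscaled) of the 18-base and the 19-base probe of miR-466b-5p on each array, with bars showing the SD over the unmarked spots of the probe on that array. The 19-base probe goes from 132 and 125 on the M0_sham arrays to 59.6 and 101 on the M1_OA arrays, while the 18-base probe lies between 37.3 and 61.5 in both groups.

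Within an array, the spot SD of the 19-base probe was 11.7, 4.27, 5.90 and 3.36 on the M0_sham arrays and then the M1_OA arrays. Between arrays the spread was wider: the 2 M1_OA values, 59.6 and 101, lay farther apart than 101 and the nearest M0_sham value, 125. On M1_OA replicate 1 a single spot of that probe read 106 and was marked as an outlier by the software, so it is outside the mean. Among the 12 miRNAs described by probe (the 11 found on all arrays and miR-466c-5p), the gap of 0.79 between the 2 probes' log2 differences was the third widest. The 9 that are not members had gaps of 0.015 to 1.41 with a median of 0.38, and 1 of the 9, miR-1249, also had probes of opposite sign. miR-466d's probes gave unscaled differences of 1.43 and 0.81, and those of miR-466c-5p gave 1.06 and 1.32.

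The probes of the other 5p members show how far the family can be told apart on this array. The longer probe of each is printed 5′ to 3′ with the repeat in capitals.
miR-466c-5p probe: catgtacatACACACAtca
miR-466d probe: acaaaaggacatACACACA
Counting positions from 1 at the 5′ end of the RefSeq mature sequence, the target of the miR-466d probe differs from that sequence by U15C. That is its only mismatch over 19 bases. It splits the pairing, so that the longest unbroken run is 11 bases with RefSeq miR-466d, against 13 bases with miR-466b-5p; run length alone does not say which of them the probe binds more. For the longer miR-466b-5p probe it is 19 bases with its own target and 13 with miR-466d, and for the longer miR-466c-5p probe 19 with its own and at most 11 with another array miRNA. The share of miR-466d signal that comes from miR-466b-5p was not tested. miR-466d read its lowest value, 12.0, on M0_sham replicate 1, where miR-466b-5p read 172, close to its highest.

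The log2 ratio of miR-466b-5p to miR-466d within an array, used here only for its change across arrays, was 3.84 and 2.53 in M0_sham and 1.79 and 1.61 in M1_OA, a change of -1.49. Against miR-466c-5p the change was -1.68. miR-466d and miR-466c-5p kept step with each other, with a change of -0.19 in their ratio. The highest ratio, 3.84, is that of M0_sham replicate 1, the array with the faintest miR-466d and miR-466c-5p. By the scanner's total gene signal column the order of these members turned. The scaled log2 differences there were -2.05 for miR-466b-5p, -2.54 for miR-466d and -2.47 for miR-466c-5p.

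**Figure D4:**
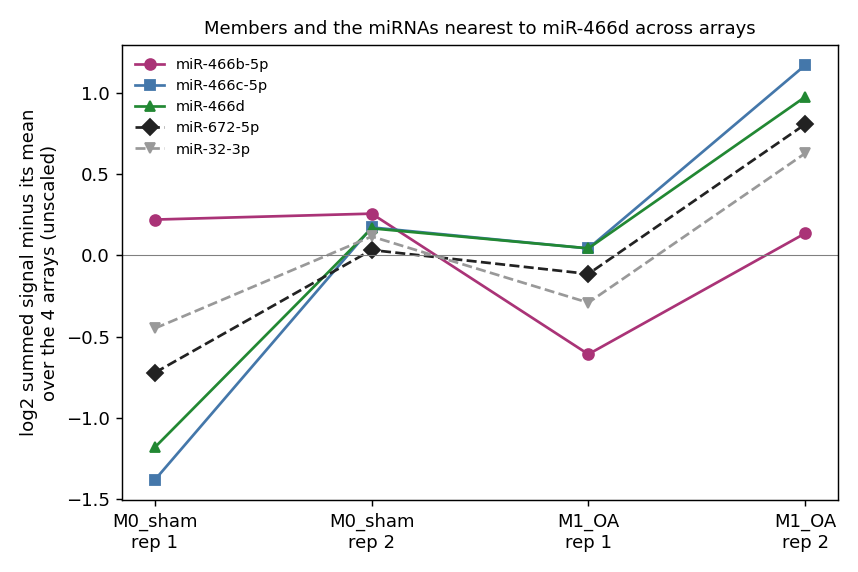
log2 summed signal of each miRNA minus its own mean over the 4 arrays (y axis, unscaled) against array, for the 3 5p members and the 2 miRNAs nearest to miR-466d, miR-672-5p and miR-32-3p. miR-466c-5p, miR-466d and both of these others are lowest on M0_sham replicate 1 and highest on M1_OA replicate 2, while miR-466b-5p is lowest on M1_OA replicate 1.

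Likeness was measured as the root mean square difference of such centred log2 profiles over the 4 arrays, in which a smaller value means more alike. Among the 10 other miRNAs above background on all arrays, the nearest to miR-466b-5p were miR-1249 (0.441), miR-32-3p (0.450) and miR-3584-5p (0.583), and miR-466d was number 5 in the order at 0.880. miR-466d lay nearest to miR-672-5p (0.265) and miR-32-3p (0.438), with miR-466b-5p at number 8. miR-466c-5p lay nearest to miR-466d (0.140), then miR-672-5p (0.390). With 4 arrays these values are descriptions, and all points of an array share its hybridisation.

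The repeat motif UGUGUG, searched as these letters in the mature strand alone, occurs in 11 of the 685 matched array miRNAs (1.61%), among them the 3 5p members. Of the 11, 7 were above background on at least 1 array, against 55 of all 758. The 7 include the 3 members, whose family was picked for its signals, and the 11 come from the matched miRNAs only. Nothing is read from setting these counts side by side. The 4 that are not members were miR-672-5p and miR-32-3p on all 4 arrays, let-7b-5p on 2 and miR-206-3p on 1. Their sequences are shown with the alternating U and G run in capitals, next to the same view of miR-466b-5p and miR-466d.
miR-466b-5p: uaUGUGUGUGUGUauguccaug
miR-466d: aUGUGUGUGUauguucuuuugu
miR-672-5p (chrX:73192351-73192373): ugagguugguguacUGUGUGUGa
miR-32-3p (chr5:76391288-76391309): gcaauuuaGUGUGUGUGauauu
let-7b-5p (chr7:118684044-118684065): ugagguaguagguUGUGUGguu
miR-206-3p (chr9:30590747-30590768): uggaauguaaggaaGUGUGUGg
miR-672-5p gave unscaled signals of 28.9 and 48.7 on the M0_sham arrays and 44.0 and 83.3 on the M1_OA arrays. miR-32-3p gave 53.5 and 79.1 in M0_sham and 59.7 and 113 in M1_OA. Both had the order of arrays seen in miR-466d and miR-466c-5p, and the groups overlapped in both. miR-297, the only array miRNA named for another branch of the mouse cluster, was above background on no array, with signals of -2.07, -6.37, 1.22 and 6.04 in the same order. No array miRNA is named miR-467 or miR-669.

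**Figure D5:**
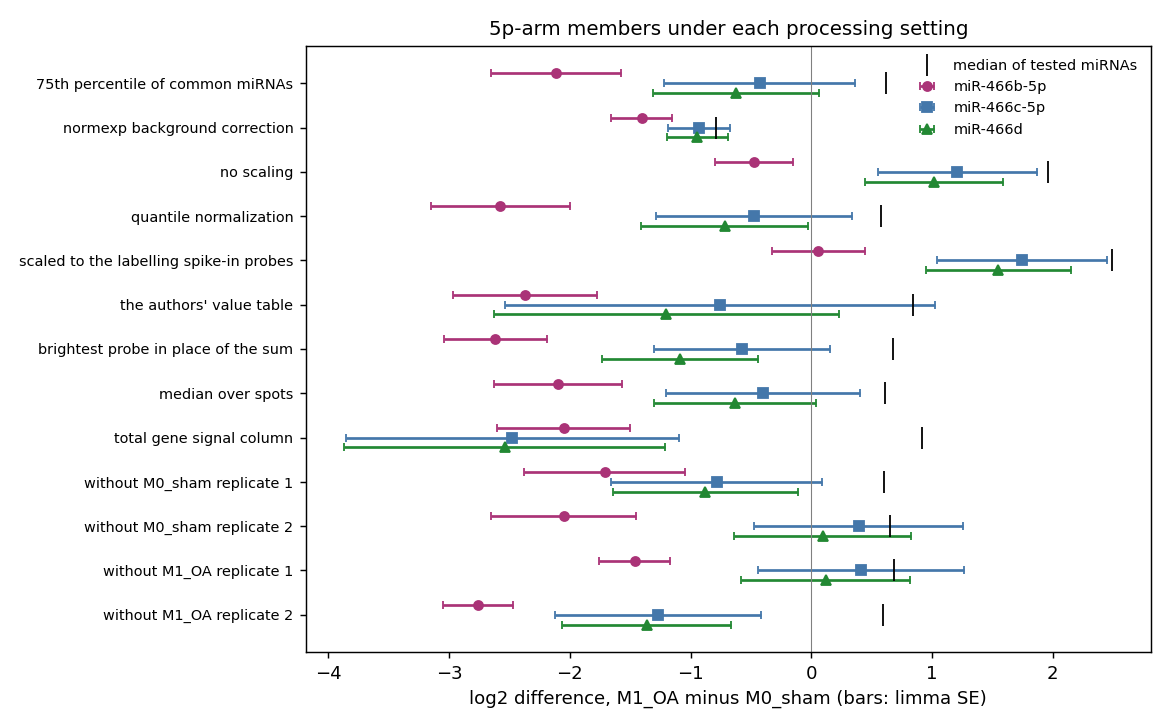
log2 difference M1_OA minus M0_sham with its limma SE (bars) for miR-466b-5p, miR-466c-5p and miR-466d under the main setting and 12 others, with the median of the tested miRNAs as a black tick. miR-466b-5p lies below that tick in every setting plotted, between -2.76 and 0.059, whereas miR-466c-5p and miR-466d cross 0.

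The arrays themselves differed between groups. The M0_sham arrays had 23 and 13 miRNAs well above background and the M1_OA arrays 42 and 45, while 703 of the 758 were above it nowhere. The lowest signal of a detected miRNA was 7.78, 26.7, 16.9 and 14.6 in that order, which limits what the dim members can show. The scan times in the headers fall into sessions that each hold 1 group, so session and group cannot be told apart. Of the myeloid markers, miR-223-3p was above background on 1 M0_sham and both M1_OA arrays, miR-142-3p and miR-142-5p on none, and miR-21-5p on the M1_OA arrays only, as were the LPS-induced miR-155-5p and miR-146a-5p. Of 11 markers of other cell types, 1 was above background, the muscle miRNA miR-206-3p on M1_OA replicate 2, and it also carries the UG repeat. The summed signal of the 11 was -38.7 and -60.4 in M0_sham and -36.0 and -30.3 in M1_OA. The red cell miRNA miR-451-5p and the liver and serum miRNA miR-122-5p were above background on no array. The part of serum or other cells in the miR-466 signals was not tested.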

How the data were processed

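Agilent Feature Extraction 10.7.1.1 (submitters' processing notes, file headers) made the deposited spot intensity. Per the file headers, its processed intensity had background subtracted with spatial detrending and no scaling between arrays. Flags of 0 or 1 in the deposited files mark spots well above background, saturated (0 here) or outlying. The authors' deposited series table holds log2 values floored at -3.32, with normalization between arrays unknown.

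Processed signals of unmarked spots were averaged per probe and summed per miRNA. Arrays were scaled to the 75th percentile of the 11 miRNAs above background on all 4 arrays. Scaled values were floored at 7.90, the lowest scaled signal that was detected, and log2 was taken; the unscaled fit was floored by the same rule. limma 3.58.1 (R 4.3.3; lmFit, eBayes, two-sided, Benjamini-Hochberg, threshold 0.05) was run over the 41 miRNAs above background on both arrays of a group, and was tested on simulated data. Named were all miR-466 members, relatives by name, by seed or by UGUGUG, the nearest profiles and cell type markers. Members and lists were chosen with earlier results of these data known. Sequences are from RefSeq (GRCr8), probes from the deposited files. Plots used matplotlib 3.10.9 in Python 3.11.15. Same-numbered replicates deviated together with r = 0.31 over the 41 miRNAs, but 2 pairs do not establish pairing and the labels name none.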

Additional observations from a re-analysis of the deposited data

How the results depend on the processing

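The log2 difference of miR-466b-5p (-2.11 in the main setting) kept its direction and call under 6 of 16 alternatives: normexp background correction (-1.41), the brightest probe (-2.62), the median over spots (-2.10), a filter at 1 array, a floor of 1 scaled unit and the replicate block. The filter, the floor and the block leave the difference at -2.11 by construction, so only the call could change there. The difference turned to 0.059 with spike-in scaling. It was no longer called with no scaling (-0.47), quantile normalization (-2.57), the authors' deposited table (-2.37), the total gene signal column (-2.05) or no filter (-2.11), nor with 1 array left out, where it ran from -2.76 to -1.46. The fit with no filter covered 758 miRNAs, and each leave-out fit lacked 1 array. Why the call was lost was not tested in any of these settings. miR-466c-5p turned to 1.21 with no scaling, 1.74 with spike-ins, 0.39 without M0_sham replicate 2 and 0.41 without M1_OA replicate 1, and miR-466d to 1.02, 1.55, 0.094 and 0.12; with 1 array left out they ran from -1.27 to 0.41 and from -1.36 to 0.12. Both were called lower with normexp (-0.93 and -0.94). The constant of 50 that normexp adds to each spot exceeds the mean processed signals of their probes, 3.05 to 33.1, so nothing is read from these calls. With normexp limma called 4 of the 41 higher and 25 lower. The counts were 22 and 4 in the main setting, 32 and 0 with no scaling, 34 and 0 with spike-ins, 16 and 3 with quantile normalization and 20 and 6 with the brightest probe. The 26 calls became 17 with the total gene signal column, 14 with no filter and 20 to 24 with 1 array left out. The replicate block gave -2.11 for miR-466b-5p, still called, and 26 calls (19 higher, 7 lower). All 3 tested members had the same limma SE with the block (0.34), and likewise with normexp (0.25). Those calls therefore do not rest on the spread of miR-466b-5p's own replicates. The floored difference of miR-466b-3p (-2.22, untested) was -4.80 in the authors' deposited table, -1.07 with the brightest probe and -0.71 by the total gene signal column. It stayed below 0 under its 12 alternatives. Its M1_OA values were held at a floor in the main setting and in the authors' table, where the difference cannot lie above 0. That sign is therefore no support. Scaling to the 75th percentile over all miRNAs was not run because that percentile was below 0 on every array (-4.68 to -0.98). Signals near the lowest detected one, as in miR-466c-5p and miR-466d, limit what can be resolved.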

Other observations

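Among the 11 miRNAs above background on all arrays, the 4 that hold UGUGUG (miR-466b-5p, miR-466d, miR-672-5p and miR-32-3p) were brighter on M1_OA replicate 2 than on M1_OA replicate 1, by a log2 of 0.74 to 0.93 on unscaled signals. The other 7 were dimmer there, by log2 differences of -0.72 to -0.031. Among the 41 tested miRNAs, the 6 with UGUGUG (let-7b-5p and miR-466c-5p being the others) were brighter on replicate 2 in both groups, against 8 of the 41 in all. In M0_sham that direction was common, with 10 of the 11 brighter on replicate 2. Many of the 41 were not above background in M0_sham, among them let-7b-5p (6.22 and 13.0), and miR-466c-5p was not on replicate 1. The pattern was seen in these signals first and was not tested. Replicate numbers carry no order.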
